A study of Mus musculus with 14 samples.

Results

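The results concern 10 chemokine ligand genes in RNA of sorted sCAFs, a class of cancer-associated fibroblasts (CAFs) of mouse mammary tumours: Cxcl1, Ccl2, Cxcl2, Cx3cl1, Cxcl10, Cxcl14, Cxcl16, Cxcl5, Ccl7 and Cxcl12. The genes were taken by name, they are the 10 chemokine ligands with the highest means in the sCAF table, and they are 10 of 13230 genes listed in either of the study's 2 count tables. All 10 were listed in the sCAF table, and 5 of them (Cxcl1, Ccl2, Cxcl2, Cxcl10 and Cxcl16) were listed in the table of natural killer (NK) cells, so for the other members there is no NK value. The study sequenced NK cells and sCAFs from a mouse model of triple-negative breast cancer and asked, for the sCAFs, which of their genes may bear on where NK cells move and stay in the tumour.

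All mice were of the BALB/c strain and 8 weeks old. Tumours grew from 100000 cells of 4T1-GFP, a mouse mammary carcinoma line that carries green fluorescent protein, placed in the lower left mammary fat pad of females. The sCAF group had 3 libraries of tumour cells depleted magnetically of CD45 and EPCAM positive cells and then sorted as lacking PDPN, CD31, CD45, GFP and EPCAM. This gate is defined by absent proteins alone, so any tumour cell without those 5 proteins could enter it. The tumour NK group had 4 libraries from the same kind of tumour, the tumour-bearing spleen NK group had 4 libraries and the healthy spleen NK group had 3 libraries from mice without a tumour. NK cells were enriched with a kit and sorted as positive for NKp46 and CD45 and negative for CD14, CD31, CD3, EPCAM and GFP. Tumours were digested for 20 min at 37 °C, whereas spleens were crushed and not digested. The series text calls the replicates independent without saying whether each was an animal, a pool or a sort.

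Chemokines are small secreted proteins that bind receptors coupled to G proteins and steer the movement of leukocytes along a gradient. CXC ligands with a glutamate-leucine-arginine (ELR) motif act on Cxcr2 and attract neutrophils, CC ligands such as Ccl2 act on Ccr2 and attract monocytes, and the interferon-inducible CXC ligands act on Cxcr3, which NK and T cells carry. In tumours, fibroblasts, carcinoma cells and macrophages can all make these ligands, and many of the genes are switched on by NF-kappaB (the transcription factor family downstream of IL-1 and TNF) or by interferon.

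Total counts ran from 1318067 to 2230475 over the sCAF libraries and from 559688 to 1966963 over the NK libraries. Levels are CPM, a library's counts scaled to a common total. Reads came from the 3' end of polyA RNA, so a transcript gives about the same number of reads whatever its length, and CPM was compared between genes without division by length. A count of 0 allows a level of up to 3 counts, which was 1.35 to 2.28 CPM in sCAF libraries and 1.53 to 5.36 CPM in NK libraries. These limits and the 95% Clopper-Pearson intervals below cover counting error only.

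The sCAF label was checked against marker lists. All 12 fibroblast markers were above 0 in every sCAF library, led by Fn1 (fibronectin) at 3049 CPM and Sparc at 1011 CPM on average. Col1a2 followed at 320.8 CPM, while Dcn, Thy1, Col1a1 and Pdgfra stood at 97, 70.1, 67.2 and 62.2 CPM. S100a4, a gene used as a marker of this class of CAFs, stood at 2085 ± 640.5 CPM (SD, n = 3). Its level was 2647, 2222 and 1388 CPM in replicates 1, 2 and 3. It also stood at 976.7 ± 271.9 CPM in tumour NK cells (n = 4), so it is not particular to sCAFs. Fap, Lum and the smooth muscle actin gene Acta2 were near the limit of counting, at 1.16, 1.05 and 3.31 CPM. The sorted-out proteins had low transcripts: Pdpn at 2.06 CPM, Ptprc (CD45) at 1.10 CPM and Epcam at 19.3 CPM. Some carcinoma or epithelial markers were nevertheless abundant. Krt18 stood at 2515 CPM, Lcn2 at 1315 CPM and Krt8 at 760.1 CPM, followed by Krt7 at 283.2 CPM and Cldn4 at 206.6 CPM. Lcn2 is also on the list of NF-kappaB response genes used below. Others on the epithelial list were low, such as Cdh1 at 22.5 CPM, Esrp1 at 5.73 CPM and Cldn7 at 2.92 CPM. The 12 epithelial markers summed to 4638, 5667 and 5236 CPM in replicates 1, 2 and 3 (11 of 12 above 0, with Krt5 at 0), against 3842, 5288 and 6290 CPM for the fibroblast list. Pericyte and smooth muscle markers summed to 103.1, 135 and 554.9 CPM, macrophage markers to 108.5, 80.4 and 173.4 CPM, and neutrophil markers to 1.79 to 9.10 CPM. The part of epithelial, pericyte or macrophage RNA in the ligand levels was not tested, and in bulk samples fewer cells of a type and less RNA per cell cannot be told apart.

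**Figure D1:**
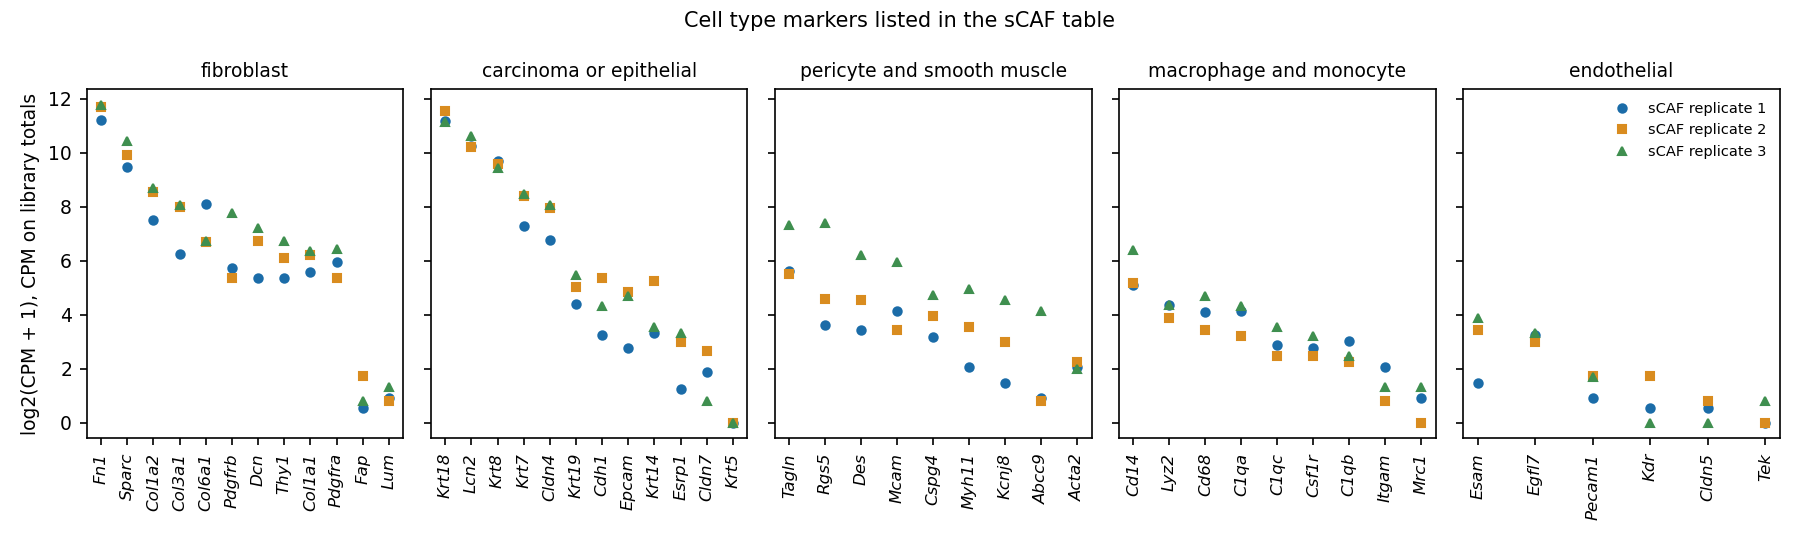
Marker genes in the 3 sCAF libraries, by cell type list; each point is a library, and the vertical axis is log2(CPM + 1). Fn1 at 3049 CPM leads the fibroblast list and Krt18 at 2515 CPM the epithelial list, and pericyte genes such as Rgs5 are highest in replicate 3.

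Of the 10 genes, 4 lie on mouse chromosome 5 (build GRCm38, GENCODE M21 annotation): Cxcl5 (chr5:90759360-90761624, plus strand), Cxcl1 (chr5:90891241-90893115, plus strand), Cxcl2 (chr5:90903871-90905938, plus strand) and Cxcl10 (chr5:92346638-92348889, minus strand). Chromosome 11 holds 3 of them, Cxcl16 (chr11:70453983-70459984, minus strand), Ccl2 (chr11:82035571-82037453, plus strand) and Ccl7 (chr11:82045712-82047525, plus strand). The remaining genes are Cx3cl1 (chr8:94772009-94782427, plus strand), Cxcl14 (chr13:56288643-56296551, minus strand) and Cxcl12 (chr6:117168535-117181367, plus strand). All are protein-coding. Cxcl1 and Cxcl2 are close paralogs, but none of the 50-base windows in the last 400 bases of any of the 10 genes' transcripts occurred in another gene's transcripts. Ccl2, Cxcl10 and Cxcl16 each overlap a gene on the opposite strand (Gm17268, Art3 and Zmynd15). Whether counting used the strand is not given in the sources used here, so reads of those partners cannot be told apart from the ligands' own.

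RefSeq promoter sequences were at hand for 6 of the 10 genes (Cxcl1, Cxcl2, Cx3cl1, Cxcl10, Cxcl14 and Cxcl12). Those of Cxcl1, the most abundant ligand, and of Cxcl2 and Cxcl10, the members that passed the test in tumour NK cells as well, are shown as the 200 bases from 250 to 51 bases before the RefSeq start (GRCm38.p6), each read 5' to 3' on its gene's strand. They span chr5:90890995-90891194 (Cxcl1, plus strand), chr5:90903649-90903848 (Cxcl2, plus strand) and chr5:92348940-92349139 (Cxcl10, minus strand). Capitals mark the run of letters that Cxcl1 and Cxcl2 share, matches to the NF-kappaB consensus and, as the first capitals in Cxcl10, the letters GAAA, any 2 bases and GAAA, a core of interferon-stimulated response elements.
Cxcl1 promoter: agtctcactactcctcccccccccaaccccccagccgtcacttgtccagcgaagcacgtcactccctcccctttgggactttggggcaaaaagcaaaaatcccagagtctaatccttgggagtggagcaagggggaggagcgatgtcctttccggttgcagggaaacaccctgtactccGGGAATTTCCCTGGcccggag
Cxcl2 promoter: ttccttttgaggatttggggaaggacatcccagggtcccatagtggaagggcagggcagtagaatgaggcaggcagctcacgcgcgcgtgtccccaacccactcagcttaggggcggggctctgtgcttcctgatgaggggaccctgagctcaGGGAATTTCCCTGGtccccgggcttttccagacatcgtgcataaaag
Cxcl10 promoter: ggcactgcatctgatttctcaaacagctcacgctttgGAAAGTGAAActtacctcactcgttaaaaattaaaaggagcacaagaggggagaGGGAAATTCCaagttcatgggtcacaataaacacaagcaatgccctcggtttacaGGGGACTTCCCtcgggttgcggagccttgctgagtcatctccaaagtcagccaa
The longest run of letters shared by the 250-base windows of Cxcl1 and Cxcl2 was GGGAATTTCCCTGG, 71 to 58 bases before the start of Cxcl1 and 97 to 84 bases before the start of Cxcl2. It was chosen because they share it, and on either strand it occurred in 2 of 32851 RefSeq mouse promoters (0.00609%), their own. The NF-kappaB consensus, matches to which overlap that run, was found on either strand in Cxcl1, Cxcl2 and Cxcl10 and in 7.25% of promoters. The GAAA pair was found in Cxcl10, 213 to 204 bases before the start, and in Cxcl14, and in 2.98% of promoters. A match describes letters in the window and is not evidence of binding in these cells.

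Cxcl1, an ELR chemokine that attracts neutrophils through Cxcr2, was by far the most abundant ligand in the sCAFs. Its level was 3658, 2878 and 3306 CPM in replicates 1, 2 and 3 (3280 ± 390.5, SD, n = 3), which placed it 27th by mean among the 12235 genes of the sCAF table. All 3 libraries lay above every library of every other ligand, and the lowest ratio to Ccl2 within a library was 4.91. Cxcl1 made up 71.4% (95% Clopper-Pearson interval 70.5 to 72.2), 69.2% (67.9 to 70.4) and 64.0% (62.8 to 65.1) of all counts on the 27 listed chemokine ligands in replicates 1, 2 and 3. Cxcl1 was thus the majority of chemokine ligand counts in each library, with its lowest share in replicate 3.

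Cxcl2 encodes another neutrophil attractant of the ELR group. It stood at 222.4, 283.7 and 391.2 CPM (299.1 ± 85.4), the third highest mean of the 10. Cxcl5, the third ELR ligand here, stood at 18.8, 38.7 and 68.3 CPM (41.9 ± 24.9), from 42, 51 and 91 counts. Both genes were lowest in replicate 1 and highest in replicate 3, whereas Cxcl1 was highest in replicate 1. The 3 ELR ligands together held 75.3% ± 2.12 (SD, n = 3) of ligand counts, almost all of it Cxcl1. Cxcr2, their receptor, was at 0 in all 3 sCAF libraries and is not in the NK table.

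Ccl2 and Ccl7, neighbours on chromosome 11, encode ligands of Ccr2 that draw monocytes out of the blood. Ccl2 stood at 337.1, 234.4 and 673.5 CPM (415 ± 229.7), the second highest mean of the 10 and rank 348 of 12235. Ccl7 stood at 18.8, 30.4 and 37.5 CPM (28.9 ± 9.44). Replicate 3 was highest for both, and its Ccl2 level exceeded the lowest library by 2.87 times, so the mean of Ccl2 rests in large part on that library (285.8 CPM without it). Both Ccr2 ligands together held 6.95%, 6.36% and 13.8% of ligand counts in replicates 1, 2 and 3.

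Cxcl10, an interferon-inducible ligand of Cxcr3, stood at 230.9, 159.3 and 202 CPM (197.4 ± 36). Its 3 libraries spread less than those of most other members, with a highest-to-lowest ratio of 1.45. The other Cxcr3 ligands were lower: Cxcl11 at 31.8, 15.2 and 3.00 CPM and Cxcl9 at 14.8, 6.07 and 8.26 CPM. All 3 were highest in replicate 1. Of the 14 interferon response genes with a mean of at least 5 CPM, 10 were also highest in replicate 1. These 14 genes summed to 3484, 2898 and 2370 CPM in replicates 1, 2 and 3.

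Cx3cl1 (fractalkine) and Cxcl16 are made as membrane-anchored proteins that proteases of the Adam family release. Cx3cl1, the ligand of Cx3cr1, stood at 392.7, 278.4 and 188.5 CPM (286.5 ± 102.4). It was highest in replicate 1 and lowest in replicate 3, the reverse order of Cxcl2, Cxcl5, Ccl7 and Cxcl12. Cxcl16, the ligand of Cxcr6, varied little, at 65.5, 63.0 and 85.6 CPM (71.3 ± 12.4). The sheddase genes Adam10 and Adam17 were both detected in the sCAF libraries, at 21.9 ± 2.50 and 112.9 ± 26.1 CPM.

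Cxcl14 and Cxcl12 are ligands made by stromal cells of normal tissues, and Cxcl12 retains cells that carry Cxcr4. Cxcl14 stood at 49.3, 88.8 and 87.1 CPM (75.1 ± 22.3), lowest in replicate 1. Cxcl12 had the lowest mean of the 10, at 10.3, 28.8 and 45.8 CPM (28.3 ± 17.8), from 23, 38 and 61 counts. The Clopper-Pearson intervals of its lowest library (6.54 to 15.5 CPM) and highest library (35.03 to 58.8 CPM) do not overlap, so the 4.44-fold span is wider than counting error. Ackr3, a scavenging receptor for Cxcl12, was the most abundant of the 12 chemokine receptor genes in the sCAF table, at 157 ± 17.1 CPM, while Cxcr4 stood at 1.86 CPM.

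**Figure D2:**
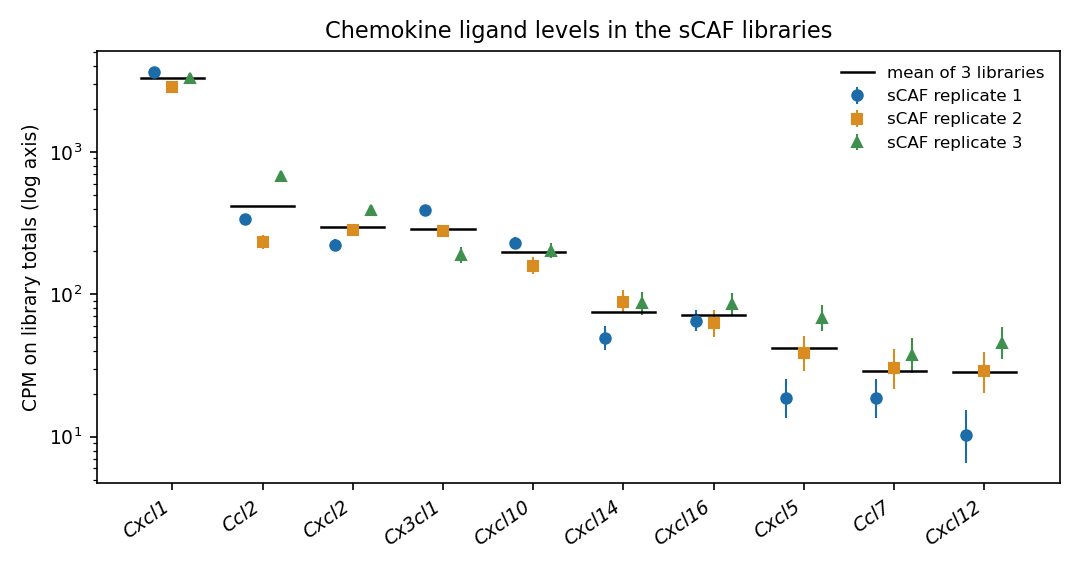
Level of each ligand in the 3 sCAF libraries in CPM on a log axis. Points are libraries with 95% Clopper-Pearson intervals for counting error, and bars are means. Cxcl1 lies between 2878 and 3658 CPM, above every library of the other 9 ligands, and Cxcl12 spans 10.3 to 45.8 CPM.

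The order of the 10 means was Cxcl1, Ccl2, Cxcl2, Cx3cl1, Cxcl10, Cxcl14, Cxcl16, Cxcl5, Ccl7 and Cxcl12. Of the 9 pairs of neighbours in this order, 2 had libraries that did not overlap, Cxcl1 above Ccl2 and Cxcl10 above Cxcl14. Ccl2, Cxcl2, Cx3cl1 and Cxcl10 thus formed a middle tier within which each neighbour overlapped the next, and Cxcl14, Cxcl16, Cxcl5, Ccl7 and Cxcl12 formed a lower tier likewise. The 10 genes summed to 5003, 4083 and 5085 CPM (4724 ± 556.4), which was 98.1% ± 0.400 of ligand counts. The list used held 31 names of other chemokine ligands, with Cxcl4 and Pf4 naming the same gene. Of these names, 17 were in the sCAF table, 3 of which were at 0 in all libraries, and none had a mean above that of Cxcl12. Since the members are the 10 most abundant ligands, their joint share and this gap describe how the set is made up. The highest was the eosinophil attractant Ccl11, at 21.02 CPM.

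The members did not move as a block across the 3 libraries. Replicate 3 was the highest library for 6 of them (Ccl2, Cxcl2, Cxcl16, Cxcl5, Ccl7 and Cxcl12), replicate 1 for 3 (Cxcl1, Cx3cl1 and Cxcl10) and replicate 2 for Cxcl14. Among the 6018 genes with a mean of at least 20 CPM, 41.6% were highest in replicate 3, 29.7% in replicate 1 and 28.6% in replicate 2. For 4 members (Cxcl12, Cxcl5, Ccl2 and Cx3cl1) the highest library exceeded the lowest by more than 2 times, against 10.2% of those genes, whose median ratio was 1.37. Pericyte marker sums were also highest in replicate 3, and Pdgfrb, a receptor of pericytes and fibroblasts, stood at 217 CPM there against 51.6 and 40.2 CPM in the other libraries. Of the 18 genes with a mean of at least 5 CPM on a list of NF-kappaB and IL-1 or TNF response genes, 10 were highest in replicate 3 and 7 in replicate 1. The part of these differences in the ligand levels was not tested.

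**Figure D3:**
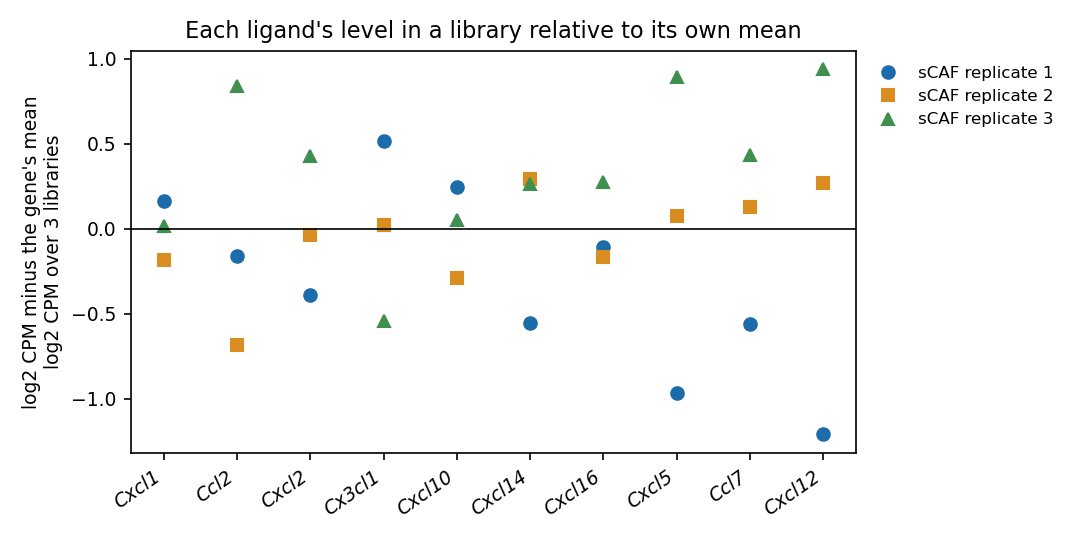
Log2 CPM of each ligand in each sCAF library minus the mean of its log2 CPM over the 3 libraries. Replicate 3 lies highest for 6 ligands and lowest for Cx3cl1, and replicate 1 lies lowest for Cxcl2, Cxcl14, Cxcl5, Ccl7 and Cxcl12.

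Levels in the sCAFs were next set against NK cells of the same kind of tumour, for the 5 members listed in both tables. Cell type, table and sequencing run cannot be told apart in this comparison. The fit held 8027 genes, of which 70.5% passed the test in either direction and 34.6% were higher in sCAFs (quasi-likelihood test in edgeR, adjusted p under 0.05 after Benjamini-Hochberg). All 5 members were called higher in sCAFs. Cxcl1, Ccl2 and Cxcl16 passed the filter on low counts through the sCAF group, where they are high, and the members were chosen as ligands abundant in sCAFs, so their shared direction and this count are a description and support nothing. The sizes differed widely among the members.

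Cxcl1 was at 0.761, 2.81, 7.07 and 0 CPM in tumour NK replicates 1 to 4, all far below the sCAF range of 2878 to 3658 CPM. The log2 difference was 9.999 (SE 0.419, adjusted p = 9.65e-11, edgeR quasi-likelihood test with Benjamini-Hochberg adjustment). Of the 16 Cxcl1 counts in tumour NK cells, 13 were in replicate 3, and without that library the difference was 11.66. Ccl2 was at 0.761, 0, 3.81 and 0.871 CPM in the tumour NK libraries, again with no overlap with sCAFs. Its log2 difference was 7.79 (SE 0.631, adjusted p = 1.2e-05, same test) and 9.20 without tumour NK replicate 3, which held 7 of the 9 counts. Tumour NK replicate 3 was also the highest of the 4 for the macrophage gene C1qb, at 21.8 CPM against 1.52, 0 and 0 CPM in replicates 1, 2 and 4. The part of macrophage RNA in these small counts was not tested.

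Cxcl2 was detected in every tumour NK library, at 21.3, 49.1, 25.6 and 15.7 CPM, yet all lay below the lowest sCAF library at 222.4 CPM. The log2 difference was 3.51 (SE 0.271, edgeR adjusted p = 1.02e-08). Cxcl16 was at 5.32, 4.21, 4.35 and 0.871 CPM in tumour NK cells, below all sCAF libraries, with a log2 difference of 4.21 (SE 0.308, edgeR adjusted p = 2.32e-11). Cxcl10 differed least. It stood at 138.4, 197.9, 102.2 and 115 CPM in tumour NK cells, and the highest of these exceeded the lowest sCAF library. Its log2 difference of 0.56 (SE 0.188) had an edgeR adjusted p of 0.0112, and the call was lost without sCAF replicate 1 (0.43, adjusted p = 0.0712), and the ranges of both cell types overlap.

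**Figure D4:**
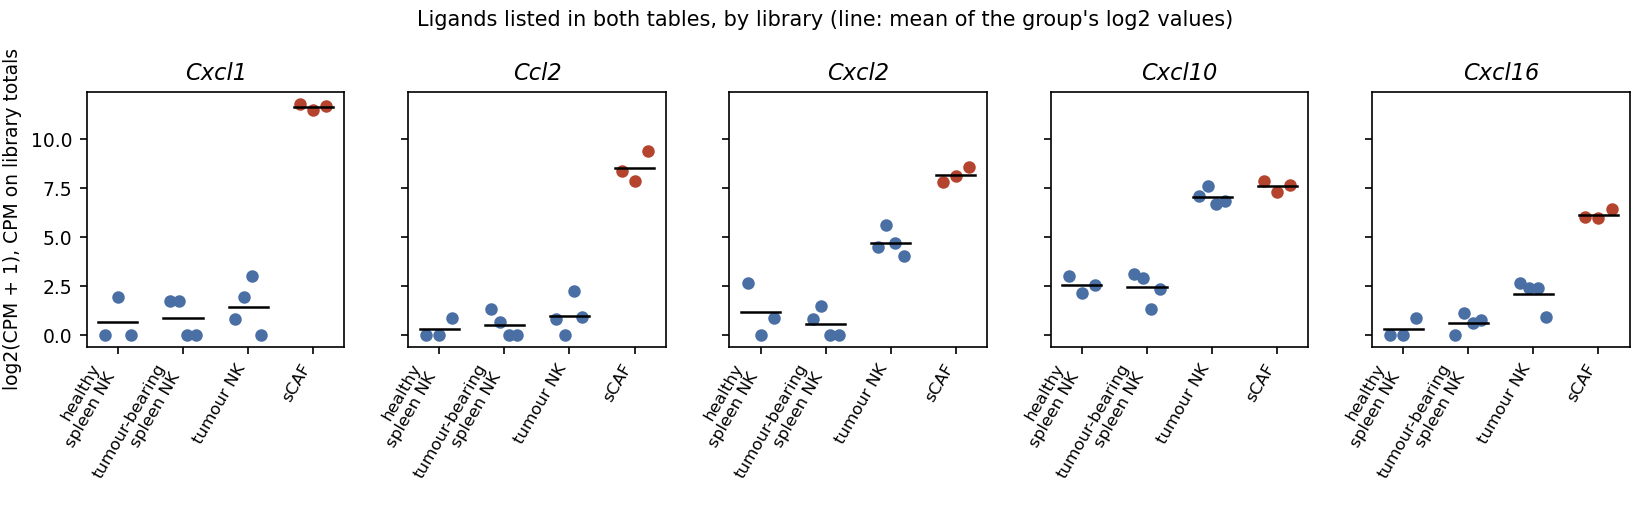
The 5 ligands listed in both tables, as log2(CPM + 1) by library in the 4 groups; lines are means of the log2 values. Cxcl1, Ccl2, Cxcl2 and Cxcl16 are higher in all 3 sCAF libraries than in any NK library, while Cxcl10 overlaps between tumour NK cells and sCAFs.

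The other chemokine ligands that could be tested ran the opposite way. All 4 tested genes of the other-ligand list were lower in sCAFs than in tumour NK cells (35.9% of all genes were lower). Among them were Ccl5, Ccl4 and Ccl3, which attract T cells and monocytes. Ccl3, Ccl4 and Ccl9 passed the filter on low counts through the tumour NK group, where they are high. Ccl11, the highest other ligand in sCAFs, is not listed for NK cells and could not be tested. The shared direction is therefore a description and supports nothing. Ccl5 averaged 11450 ± 1522 CPM in tumour NK cells (SD, n = 4) and 15.1 ± 9.89 CPM in sCAFs (n = 3), a log2 difference of -9.45 (SE 0.37, edgeR adjusted p = 8.57e-13). All 6 receptor genes tested, including Cxcr4, Cxcr6 and Ccr2, were lower in sCAFs, with a median log2 difference of -6.25. Cxcr4, Cxcr6 and Ccr2 likewise passed the filter through the tumour NK group. Ackr3, at 157 CPM in sCAFs, is not listed for NK cells, so this count too is a description alone. On the NF-kappaB list, 3 genes were higher, 5 lower and 4 not called of 12. On the interferon list, 5 were higher, 9 lower and 3 not called of 17. Over all genes, 34.6% were higher and 35.9% lower. The higher ones of the NF-kappaB list were Csf1 (a macrophage growth factor, 7.10), Lif (5.24) and Saa3 (4.91), values being log2 differences. Csf1 and Saa3 passed the filter on low counts through the sCAF group, where they are high. Ifit2, Mx1, Rsad2 and Oas1a, among the lower interferon genes, passed it through the tumour NK group. These counts are a description as well.

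Among the NK groups, 2 of the 5 listed members, Cxcl2 and Cxcl10, passed the filter on low counts. Both passed it through the tumour NK group, where they are high. That both were called higher there is therefore a description and supports nothing. Cxcl10 was far higher in NK cells from the tumour than in those from either spleen. In tumour-bearing spleens it stood at 7.77, 6.53, 1.53 and 4.19 CPM and in healthy spleens at 7.15, 3.38 and 4.96 CPM, while the lowest tumour library was at 102.2 CPM. The log2 difference was 4.93 against tumour-bearing spleens (SE 0.294, adjusted p = 5.36e-10) and 5.04 against healthy spleens (SE 0.356, adjusted p = 5.64e-09), by edgeR's quasi-likelihood test with Benjamini-Hochberg adjustment. Both comparisons share the 4 tumour libraries. Against tumour-bearing spleen replicates 3 and 4 alone the log2 difference of Cxcl10 was 5.66, and against replicates 1 and 2 alone it was 4.40. Of the 8471 genes tested, 29% were called against tumour-bearing spleens (15.8% higher) and 30.5% against healthy spleens (16.5% higher), and the groups did not overlap for 32% and 39% of them.

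Cxcl2 was at 0.777, 1.78, 0 and 0 CPM in tumour-bearing spleens and at 5.36, 0 and 0.826 CPM in healthy spleens, so spleen NK cells were at or under 3 counts in every library. Tumour NK cells, at 15.7 to 49.1 CPM, did not overlap with either. The fitted log2 differences were 5.33 (SE 0.654, edgeR adjusted p = 1.07e-05) against tumour-bearing spleens and 4.58 (SE 0.723, edgeR adjusted p = 0.00014) against healthy spleens. Their size is imprecise: leaving out tumour-bearing spleen replicate 2 gave 6.53, and leaving out healthy spleen replicate 1 or 2 gave 6.09 or 3.65. Against tumour-bearing spleen replicates 1 and 2 alone the value was 4.37, and against 3 and 4 alone, both at 0, it was 8.20. Warm enzymatic digestion was used for tumours alone, and tissue and preparation cannot be told apart here.

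Cxcl1, Ccl2 and Cxcl16 summed to 7, 3 and 4 counts over the 4 tumour-bearing spleen libraries and to 5, 1 and 1 counts over the 3 healthy ones. Without the filter, Cxcl16 was higher in tumour NK cells than in tumour-bearing spleen NK cells (log2 difference 2.52, SE 0.756, edgeR adjusted p = 0.0172), from 19 counts in the tumour group. The same fit did not call Cxcl1 (1.49, SE 1.02, adjusted p = 0.309) or Ccl2 (1.78, SE 1.03, adjusted p = 0.221). Between tumour-bearing and healthy spleens neither tested member was called, where 1.58% of genes were (1.23% higher, 0.354% lower) and the groups did not overlap for 14.6%. The log2 difference of Cxcl10 was 0.11 (SE 0.515, edgeR adjusted p = 0.978) and that of Cxcl2 was -0.75 (SE 1.27, edgeR adjusted p = 0.901).

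Transcripts of receptors for the sCAF ligands were also measured in NK cells. Of 9 receptor genes tested, 6 were higher, 1 was lower and 2 were not called in tumour against tumour-bearing spleen NK cells by the edgeR test. Of all genes, 15.8% were higher and 13.2% lower. Ccr7 and Cxcr5, counted among the higher ones, passed the filter on low counts through the tumour group, where they are high. Cxcr4, the receptor of Cxcl12, averaged 314.2 ± 75.9 CPM in tumour NK cells and 42.0 ± 19.7 CPM in tumour-bearing spleens, and Cxcr6, the receptor of Cxcl16, 81.4 ± 16.3 and 14.1 ± 8.46 CPM (SD, n = 4 each). Cx3cr1, the receptor of Cx3cl1, was lower in the tumour, at 24.4 ± 5.74 against 134.5 ± 28.7 CPM. The log2 differences were 3.05 (SE 0.331) for Cxcr4, 2.70 (SE 0.285) for Cxcr6 and -2.37 (SE 0.202) for Cx3cr1. Cxcr3, the receptor of Cxcl10, and Ccr2, the receptor of Ccl2 and Ccl7, were not called, at 82.1 ± 10.9 against 64.6 ± 10.3 CPM and 759.4 ± 190.2 against 400.1 ± 286.2 CPM. Ccr2 ran from 149.5 to 727.2 CPM over the tumour-bearing spleen libraries.

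Over the 7 tumour libraries (3 sCAF and 4 tumour NK), the genes whose log2(CPM + 1) most resembled Cxcl1 were Timp1, an inhibitor of matrix metalloproteinases (Pearson r = 0.9990), Mvp (0.9986) and Atp13a1 (0.9986). Genes that resembled Ccl2 included Stom (0.9972) and Gorasp2 (0.9972), and those nearest to Cxcl2 were the basement membrane collagen gene Col4a1 (0.9959), Asap2 (0.9948) and Erfe (0.9945). The 7 points fall into the 2 cell types, and a step between these is shared by many genes: 9.67%, 9.18% and 5.85% of the 9215 shared genes had r above 0.95 with Cxcl1, Ccl2 and Cxcl2. In sCAF replicates 1, 2 and 3, Timp1 stood at 349.3, 259.5 and 348.4 CPM and Col4a1 at 221.5, 292.1 and 591.7 CPM. These 3 libraries were among the 7 used to pick the genes, so an order shared with Cxcl1 or Cxcl2 supports nothing. Atp13a1, at 179.3, 180.6 and 190 CPM, did not share the order of Cxcl1.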

How the data were processed

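Bulk RNA from 3' end libraries of sorted cells was analysed in 14 libraries, 11 of NK cells and 3 of sCAFs. The authors deposited raw counts per gene symbol in 2 tables, and, per the submitters' processing notes, used bcl2fastq, STAR 2.4.2a, HTSeq and the mm10 build. Annotation, counting settings and molecular identifiers are not given in the sources used here. Headers held spaces in place of a tab, so columns were assigned by position. No values of other samples were present. Each listed NK gene reached 6 counts in some library, so a gene missing there has no value.

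Levels are CPM on library totals, with exact binomial (Clopper-Pearson) intervals. Tests used edgeR 4.0.16 (R 4.3.3): filterByExpr, TMM, robust quasi-likelihood fits with group as the only term, and Benjamini-Hochberg adjustment over all genes tested, called under 0.05. The sCAF fit used 9215 shared genes before filtering and the 4 tumour NK libraries, and the NK fit all 11 NK libraries. SE is the log2 difference divided by the square root of F. The code was tested on simulated data. Alternatives were other scalings, no filter, DESeq2 1.42.0, a replicate block, left-out libraries and a spleen split. The p-values measure the spread between these libraries. Named genes were the 10 members, genes of the lists, and the 3 most like each of the 3 most abundant members in both tables, of which 1 is not reported here. Members and lists were chosen with earlier results of these data known.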

Additional observations from a re-analysis of the deposited data

How the results depend on the processing

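All 86 alternative values of the members' sCAF levels and shares stayed within 1 SD of the value reported. Leaving out 1 of 3 libraries cannot move their mean by 1 SD, so for those alternatives this outcome was fixed in advance. With single libraries left out, the mean of Ccl2 ran from 285.8 to 505.3 CPM and that of Cxcl12 from 19.57 to 37.32 CPM. Of 143 alternative log2 differences of members, 141 kept their side of the threshold. Both exceptions were Cxcl10 in sCAFs against tumour NK cells: 0.43 (edgeR adjusted p = 0.0712) without sCAF replicate 1 and 0.50 (edgeR adjusted p = 0.0545) with the replicate block, over a range of adjusted p from 0.00205 to 0.0712 across its alternatives. The numbers of called members ranged from 4 to 5 there and from 2 to 3 for tumour NK cells against either spleen. Leaving out both sCAF replicate 3 and tumour NK replicate 3, a setting chosen after seeing the data, gave 11.65 for Cxcl1 and 8.67 for Ccl2.

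Same-numbered libraries did not deviate together in every pair of any comparison: r was -0.0437, -0.00731 and -0.0723 for sCAF and tumour NK, -0.0471, 0.288, 0.00249 and 0.211 for tumour and tumour-bearing spleen NK, -0.186, -0.195 and 0.0445 for tumour and healthy spleen NK, and 0.501, -0.353 and 0.348 for both spleens. The numbers were therefore not taken as pairs, and the replicate block otherwise changed 1 count by over 1.5 times: genes lower in tumour-bearing than healthy spleens were 18 with it and 30 without. Counts over all genes moved as follows. Against spleen replicates 1 and 2 alone, 546 genes were lower in tumour than tumour-bearing spleen NK cells (1115 with all). The spleen split sets tumour-bearing replicates 1 and 2 and healthy replicate 1 apart from the other spleen libraries, and so cuts across both groups. Deviations of healthy replicate 1 correlated with those of tumour-bearing replicates 1 and 2 at 0.501 and 0.528. Between libraries on different sides of the split, r ran from -0.522 to -0.353. With this split as a term, 443 and 248 genes were higher and lower in tumour-bearing than healthy spleens (104 and 30 without). Leaving out single replicates gave 782 to 1406 genes lower in tumour than healthy spleen NK cells, and 35 to 100 higher and 7 to 25 lower in tumour-bearing than healthy spleens. Upper-quartile scaling changed the split for tumour against tumour-bearing spleen from 1338 higher and 1115 lower to 1091 and 1530, and against healthy spleen from 1399 and 1183 to 1154 and 1569. The cause was not tested. In NK cells depth limits Cxcl1, Ccl2 and Cxcl16, which rest on few counts.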

Other observations

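Growth factor and cytokine genes on the list of NF-kappaB and IL-1 or TNF response genes ranged widely in the sCAF libraries. Whether they share a signal with the ligands was not tested. Csf3, the neutrophil growth factor, stood at 858.8 ± 186.3 CPM (SD, n = 3), above every member but Cxcl1. Csf1, which maintains macrophages, stood at 503.8 ± 32.3 CPM and Lif at 476.1 ± 127.8 CPM. Csf2 and Il6 were lower, at 38.4 ± 4.66 and 12.6 ± 11.2 CPM. Nfkbia, the NF-kappaB inhibitor that NF-kappaB itself induces, stood at 2650 ± 345.9 CPM in sCAFs and did not pass the edgeR test against tumour NK cells (log2 difference 0.25, SE 0.155, adjusted p = 0.16).

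Proteases that trim or release chemokines were also measured. Mmp14 stood at 474.2 ± 205.8 CPM and Mmp9 at 302.9 ± 163.5 CPM in sCAFs. The 6 processing genes with a mean of at least 5 CPM summed to 819.6, 952.9 and 1531 CPM in replicates 1, 2 and 3. Dpp4, whose product cleaves Cxcl10 and Cxcl12, had 1 count in all.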
